A study of Mus musculus with 4 samples.

Results

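The mouse renal capsule, the connective tissue sheath around the kidney, holds a group of collagen-producing cells marked by Myoc, Fmod, Cilp, Col12a1 and Cpxm2. The cells were chosen by their measured levels of these genes, which are therefore no finding. They numbered 2973 of the 37361 barcodes past the quality limits (7.96%) and 22.87% of the 13001 collagen-positive barcodes. A barcode entered the group with at least 5 unique molecular identifiers (UMIs) of Col1a1, Col1a2 and Col3a1 together, no UMI of Ptprc or Pecam1, and at least 3 of the 5 marker genes detected. They are called gated cells below. Collagen-positive barcodes with fewer of the 5 genes, 10028 in number, are called the other collagen-positive cells. As an outside reference, 10811 barcodes with at least 2 UMIs of Ptprc, the pan-leukocyte gene, and under 5 collagen UMIs are called immune barcodes.

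The libraries came from untreated renal capsules of young mice (2 libraries) and aged mice (2 libraries), digested as whole tissue, with no sort named in the labels, and sequenced by a droplet 3′ method. The labels name neither the ages in months nor the strain, the sex or the number of mice behind a library. P-values therefore measure the spread between these 4 libraries, which may be technical. Values of single libraries are given in the order young replicate 1, young replicate 2, aged replicate 1 and aged replicate 2. Gated cells numbered 1211, 1273, 172 and 317, with 7388622, 7765119, 1088831 and 1604209 UMIs in sum and a median of 5688, 5592, 6209 and 4689 UMIs per cell. The aged sums were thus the shallower ones. Between 22 and 40 barcode sequences recurred between any pair of libraries, at most 0.386% of the smaller library.

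The 5 marker genes encode matrix and secreted proteins. Myoc (myocilin) is a secreted glycoprotein best known from the outflow tissue of the eye. Fmod (fibromodulin) is a small leucine-rich proteoglycan that binds collagen fibrils and is abundant in tendon, and Col12a1 encodes a collagen that sits on the surface of collagen fibrils in dense connective tissue. Cilp is a matrix protein first described in cartilage, and Cpxm2 is a secreted carboxypeptidase-like protein without known enzymatic activity. Dense connective tissue fibroblasts, tendon cells among them, are set apart from loose connective tissue fibroblasts by such fibril-associated proteins and by the transcription factors Scx and Mkx, the membrane glycoprotein Tnmd and the thrombospondins Thbs4 and Comp.

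The general fibroblast genes Dcn and Pdgfra were detected in most gated cells. Of 8 general fibroblast genes listed, 6 were higher than in the other collagen-positive cells in all 4 libraries, and 1 was lower in all 4. Of 8 listed genes of adventitial fibroblasts, 8 were lower in all 4 libraries. Dcn, a collagen-binding proteoglycan, had a UMI in 100% of gated cells of each library, and Pdgfra, a growth factor receptor of fibroblasts, in 90.26%, 86.41%, 93.02% and 92.11%. In the immune barcodes Pdgfra had a UMI in 3.78%, 3.35%, 1.51% and 1.36%. The tendon genes were divided. Thbs4, Mkx, Tnmd and Comp were each above the other collagen-positive cells in all 4 libraries, while Scx, Kera, Chad and Cilp2 lay at or near 0. Scx had a UMI in 0.17%, 0.47%, 0% and 0% of gated cells, where 0 of 489 aged cells allows a share of up to 0.613% of cells with a UMI, which sets no limit on cells that express the gene. The cells are named here by the genes of the gate.

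The gate left its own trace in the levels, which are a description and no result. Levels are CPM, counts scaled to the same total, of the UMIs summed over the gated cells of a library. Myoc stood at 2077, 2613, 3262 and 3544 CPM, and Cilp at 1581, 1453, 1949 and 2033 CPM. Fmod stood at 1310, 941.6, 659.4 and 604.7 CPM, and Col12a1 at 707.3, 629.1, 333.4 and 407.1 CPM. For Myoc and Cilp both aged libraries lay above both young ones, and for Fmod and Col12a1 both lay below. Over the 12586 genes later tested for age, 28.7% lay above in this way and 23.7% below. Cpxm2, at 2165, 1714, 1939 and 1699 CPM, overlapped between the ages. Among the gated cells, 25.93%, 29.38%, 51.74% and 61.51% had no UMI of Col12a1, whereas 29.31%, 22.7%, 20.93% and 21.77% had none of Myoc. Cells at the edge of the gate, with exactly 3 genes, numbered 357, 416, 66 and 155, and those just outside it, with exactly 2, numbered 427, 494, 133 and 185.

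**Figure D1:**
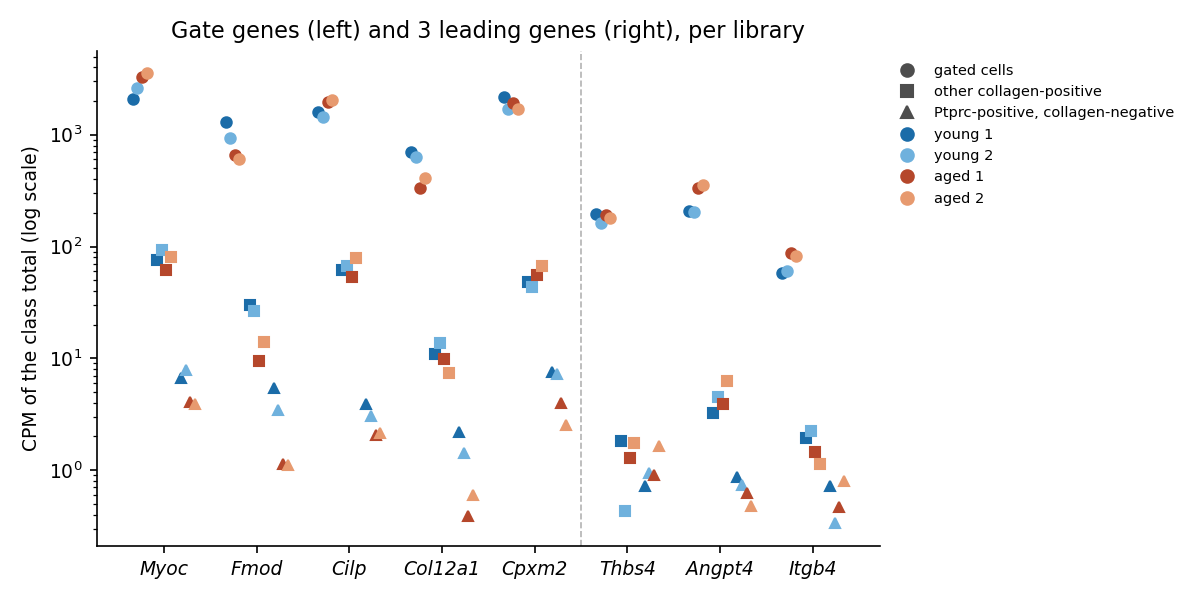
Level of the 5 gate genes and of Thbs4, Angpt4 and Itgb4 in each library, as CPM of the class total on a log axis, in gated cells (circles), other collagen-positive cells (squares) and immune barcodes (triangles). For every gene drawn the 4 gated libraries lie above all libraries of the other classes; for the 5 gate genes the gate itself sets this.

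Beyond the gate genes, other genes also stood higher in these cells. Of 3424 genes with at least 50 CPM in either class, 174 (5.08%) were 2-fold or more higher in gated than in other collagen-positive cells in all 4 libraries, and 120 (3.5%) were 2-fold or more lower. This contrast was used to choose the cells and has no test. Ranked by the median log2 ratio over the libraries (CPM plus 1), Thbs4 led with 6.26. Its level was 196.1, 162, 190.1 and 181.4 CPM in gated cells against 1.82, 0.43, 1.27 and 1.76 CPM in the others. Angpt4, a ligand of the Tie2 receptor of blood vessels, followed with 206.4, 205.1, 331.5 and 353.4 CPM against 3.21, 4.52, 3.91 and 6.25 CPM. Angpt4 had a UMI in 46.00%, 46.66%, 53.49% and 53.63% of gated cells and in at most 2.73% of the others and 0.64% of immune barcodes, so it was in more of the gated cells than Thbs4. Among the 20 leaders, genes of matrix proteins were Col8a1, Col8a2, Npnt (nephronectin, an integrin ligand of basement membranes), Mfap4, Egflam and Comp. Genes of secreted signalling proteins were Wisp2, Sfrp5, a secreted Wnt antagonist, and Nrtn, a neurotrophic factor of the GDNF family.

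The genes lowest in gated cells included a mesothelial gene and genes known from epidermis that other collagen-positive cells carried here. Upk3b, a surface protein of mesothelium, stood at 9.34, 6.70, 0 and 1.25 CPM in gated cells against 102.1, 126.8, 33.14 and 48.22 CPM in the others. At least 2 of Krtdap, Sbsn and Dmkn had a UMI in 39.37%, 40.39%, 24.1% and 21.77% of the other collagen-positive cells. Sbsn and Dmkn, secreted proteins known from epidermis, had a median log2 ratio of -3.30 and -3.53. The order of these ratios was not the same in all libraries. Car3, a carbonic anhydrase of fat cells, had a log2 ratio of -0.97 in young replicate 2 and between -2.91 and -5.03 in the other libraries.

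Thbs4 was not evenly spread over the gated cells. It had a UMI in 13.71%, 14.77%, 9.30% and 11.67% of them. Among gated cells with a UMI of Itgb4, the integrin chain of laminin-binding adhesions, 39.82%, 37.85%, 33.33% and 48.15% also had Thbs4, against 7.88%, 9.10%, 2.94% and 4.18% of the cells without Itgb4. Median depth was 6310, 5783, 4978 and 4507 UMIs with Itgb4 and 5536, 5502, 6304 and 4700 UMIs without it, so in the aged libraries the Itgb4 cells were the shallower ones. Of Comp cells, 3.70%, 4.26%, 3.70% and 11.76% also had Thbs4, against 13.94%, 15.17%, 10.34% and 11.65% of the rest. These shares rest on only 27, 47, 27 and 51 Comp cells, of which 1, 2, 1 and 6 had Thbs4, and aged replicate 2 showed no gap. Myoc was found in 96.3%, 100%, 96.3% and 96.08% of Comp cells. These shares are descriptions within libraries, and a share of cells with a UMI depends on depth.

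Itgb4, Cldn1, Lypd2 and Perp are also genes of nerve sheath (perineurial) cells. Cldn1, a tight junction protein, stood at 33.02, 23.7, 46.84 and 64.21 CPM against a mean of 2.87 CPM in the other collagen-positive cells. Slc2a1, the glucose transporter that defines perineurium, was at 7.99, 3.22, 10.1 and 8.73 CPM against a mean of 5.99 CPM. Of the 8 nerve sheath genes listed, 6 were higher in gated cells in all 4 libraries and 0 were lower in all 4. Endothelial genes were divided, with 4 of 8 higher and 1 lower in all 4 libraries. Kdr, a VEGF receptor, stood at 163.4, 140.4, 58.78 and 81.04 CPM and Cdh5, the cadherin of endothelial junctions, at 33.57, 31.04, 40.41 and 34.28 CPM, against means of 7.0 and 0.837 CPM in the others. The endothelial genes Tie1, Egfl7 and Esam were at most 2.84 CPM in every gated sum, and Pecam1 is 0 by the gate.

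The start-site regions of Thbs4 and Tnmd are shown because these tendon genes behaved differently with age (as given further on) and because Scx, the tendon factor that binds E-boxes (CANNTG), was near 0 in these cells. The letters are the 250 bases before the annotated start, on the gene's strand, 5′ to 3′, from RefSeq on build GRCm38.p6, with E-boxes in capitals. Thbs4 lies on the minus strand (chr13:92794819-92795068) and Tnmd on the plus strand (chrX:133850758-133851007).
Thbs4: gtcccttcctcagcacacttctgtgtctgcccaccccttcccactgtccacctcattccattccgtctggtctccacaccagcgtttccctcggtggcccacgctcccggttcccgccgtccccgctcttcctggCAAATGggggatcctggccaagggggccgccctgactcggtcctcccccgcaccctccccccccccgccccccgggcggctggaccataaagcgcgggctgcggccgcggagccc
Tnmd: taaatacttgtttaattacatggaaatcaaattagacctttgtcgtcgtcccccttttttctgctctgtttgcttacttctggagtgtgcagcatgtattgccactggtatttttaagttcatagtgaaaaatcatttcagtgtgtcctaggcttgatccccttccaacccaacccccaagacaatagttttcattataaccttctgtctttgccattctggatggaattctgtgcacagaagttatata
The Thbs4 window holds 1 E-box, which begins 115 bases before the start, and the Tnmd window holds 0. TATAAA, searched on both strands, was in neither. Of all 32851 windows of this length, 66.22% hold an E-box (its pattern is its own reverse complement) and 12.37% hold TATAAA. A match of letters is a description, not a binding site.

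Gated cells were a smaller part of the collagen-positive cells in the aged libraries. They made up 27.44% (exact Clopper-Pearson 95% interval 26.12 to 28.78) and 25.42% (24.22 to 26.65) of collagen-positive cells in the young libraries. In the aged libraries they made up 12.86% (11.11 to 14.77) and 14.14% (12.72 to 15.65). The groups did not overlap, and the mean was 13.5% ± 0.905 (SD, n = 2) against 26.43% ± 1.43, a ratio of 0.511. An exact two-sided permutation test of 2 against 2 libraries gave p = 0.333, the smallest it can give. The intervals cover counting error only.

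The ratio was as low at equal depth. With each cell thinned to 2000 UMIs before the gate, the shares were 20.96%, 18.97%, 9.30% and 9.85%, a ratio of 0.479. This left out 128, 169, 13 and 18 gated cells that were shallower. The share moves with the gate, as its ratio was 0.415 with at least 4 of the 5 genes and 0.624 with at least 2. The levels of the gate's genes also differed between the ages: the median collagen count per gated cell was 101, 83, 28 and 19 UMIs, and 18.61% of gated cells of aged replicate 2 had only 5 to 9. With the collagen limit set at 2 or at 10 UMIs, the ratio was 0.525 and 0.503. The part of these levels in the share was not otherwise tested. Of immune barcodes, 0.319%, 0.223%, 0.129% and 0.149% carried at least 3 of the 5 genes. By their definition these barcodes lie outside the gate, so this is only the share that carried 3 of the genes.

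**Figure D2:**
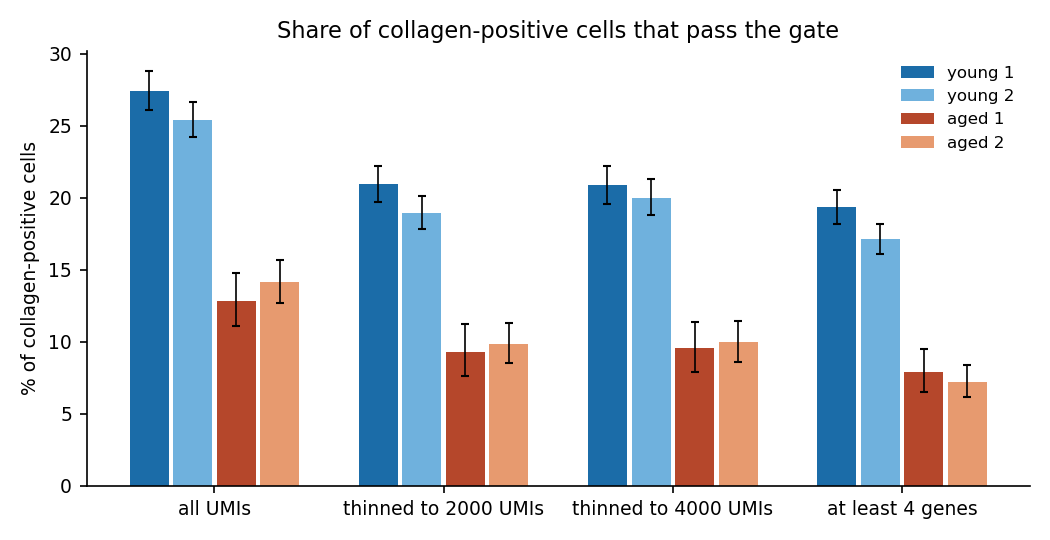
Share of collagen-positive cells that pass the gate, in percent, per library, with exact 95% binomial intervals, from all UMIs, after thinning to 2000 or 4000 UMIs per cell, and with at least 4 gate genes. Under each of these settings both aged libraries lie below both young ones.

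The transcripts of the gated cells differed between the ages over a wide range of genes. Of 12586 genes tested by edgeR's quasi-likelihood test on UMI sums per library, 434 rose (3.45%) and 454 fell (3.61%) in aged over young at an adjusted p under 0.05, 888 or 7.06% in all. More than 2-fold changes made up 245 of the rises and 280 of the falls. Without regard to a test, both aged libraries lay above both young ones for 28.7% of genes and below them for 23.7%. Changes are given as log2 fold changes with standard errors. Each standard error was derived from the test, as the absolute change divided by the square root of its F statistic. The fit ran on 4 libraries with 172 to 1273 gated cells each. At least 2 of Col6a5, Spon1 and Col15a1 had a UMI in 44.26%, 39.51%, 14.53% and 9.46% of gated cells. At least 2 of Apod, Inmt and Steap4 had one in 38.48%, 37.08%, 74.42% and 66.88%. Col15a1 and Apod were themselves called with age, as given below. Whether the mix of cells within the gate differed between the ages was not tested.

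Among the larger rises were a Wnt antagonist, chemokines and a retinoic acid enzyme. Sfrp5 stood at 10.56, 8.37, 261.7 and 110.3 CPM and rose by 4.22 ± 0.35 (adjusted p = 7.1e-05), or by 3.51 without aged replicate 1. Cxcl14, a chemokine, stood at 13.81, 9.53, 195.6 and 240.6 CPM and rose by 4.19 ± 0.20 (adjusted p = 1.3e-06). Cxcl12, the ligand of the receptor Cxcr4, stood at 72.95, 72.89, 941.4 and 882.1 CPM and rose by 3.6 ± 0.12 (adjusted p = 1.3e-07). For each of these genes both aged libraries lay far above both young ones. Cyp26b1, which degrades retinoic acid, stood at 7.17, 7.60, 87.25 and 102.9 CPM and rose by 3.65 ± 0.18. The long non-coding RNA Snhg11 stood at 4.06, 3.99, 104.7 and 98.49 CPM and rose by 4.60 ± 0.18. Flt1, a VEGF receptor, rose from 2.71 and 3.09 to 52.35 and 26.18 CPM, while Kdr fell by 1.14 ± 0.17.

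More of the gated cells carried these transcripts in the aged libraries. Cxcl12 had a UMI in 18.83%, 19.09%, 61.63% and 64.35% of gated cells, and in 9.14%, 9.69%, 45.28% and 49.50% after thinning to 2000 UMIs. In the immune barcodes Cxcl12 had a UMI in 16.38%, 17.03%, 11.95% and 8.0%, so the young shares were near that level and the aged shares well above it. Cxcl14 had a UMI in 1.49%, 2.28%, 13.95% and 17.98% of gated cells and in at most 1.48% of immune barcodes. Sfrp5 was confined to fewer cells, 1.32%, 0.94%, 6.40% and 5.99%.

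The falls included adhesion, matrix and growth genes. Ncam1, the neural cell adhesion molecule, stood at 47.37, 34.38, 2.76 and 0.623 CPM and fell by 4.79 ± 0.46 (adjusted p = 0.00017), with a fall of 3.93 to 6.02 when 1 library was left out. Its share of cells was 18.74%, 15.87%, 1.74% and 0.32%. Fbn2, a fibrillin of developing elastic fibres, stood at 63.21, 42.5, 5.51 and 4.99 CPM and fell by 3.38 ± 0.34. Stmn1, a microtubule-destabilizing protein of growing cells, fell by 3.32 ± 0.33, and the histone gene Hist1h2ap by 2.77 ± 0.60. Both calls were lost after thinning to 2000 UMIs (adjusted p of 0.058 and 0.231). The change of Stmn1 was -4.81 without aged replicate 2, and that of Hist1h2ap was -1.93 without young replicate 2 and -3.46 without aged replicate 2. Retnla, a secreted resistin-like protein of both macrophages and stromal cells, fell by 2.72 ± 0.17, but its change was -0.04 (adjusted p = 0.965) after thinning to 2000 UMIs and -1.10 without barcodes carrying transcripts of other cell types. The mast cell protease Mcpt4 and the plasma protein gene Spp2 also fell, from levels that differed widely between the young libraries. The change of Mcpt4 was -3.27 and that of Spp2 -4.5 without young replicate 2, and the latter was -11.26 without aged replicate 2. Both calls were lost among genes above their level in immune barcodes (adjusted p = 0.062 for Mcpt4 and 0.052 for Spp2), and that of Mcpt4 also with at least 4 gate genes (0.073).

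Of the 4 tendon genes tested, 1 rose, 2 fell and 1 did not pass the test. Comp stood at 6.50, 12.11, 165.3 and 140.9 CPM and rose by 3.98 ± 0.23 (adjusted p = 7.1e-06). Tnmd stood at 77.96, 74.56, 1.84 and 11.22 CPM and fell by 3.41 ± 0.34 (adjusted p = 0.00022), or by 5.41 without aged replicate 2. Thbs4 differed by 0.01 ± 0.13 (adjusted p = 0.979), with overlapping libraries. Comp was thus high in the aged libraries and Tnmd in the young ones. Mkx, at 17.05, 20.48, 5.51 and 9.35 CPM, fell by 1.31 (adjusted p = 0.025), and its adjusted p was 0.185 by DESeq2, 0.117 with at least 4 gate genes and 0.286 after thinning. Comp had a UMI in 2.23%, 3.69%, 15.70% and 16.09% of gated cells and Tnmd in 16.93%, 17.28%, 1.16% and 2.84%, against at most 0.69% and 1.71% of the other collagen-positive cells.

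**Figure D3:**
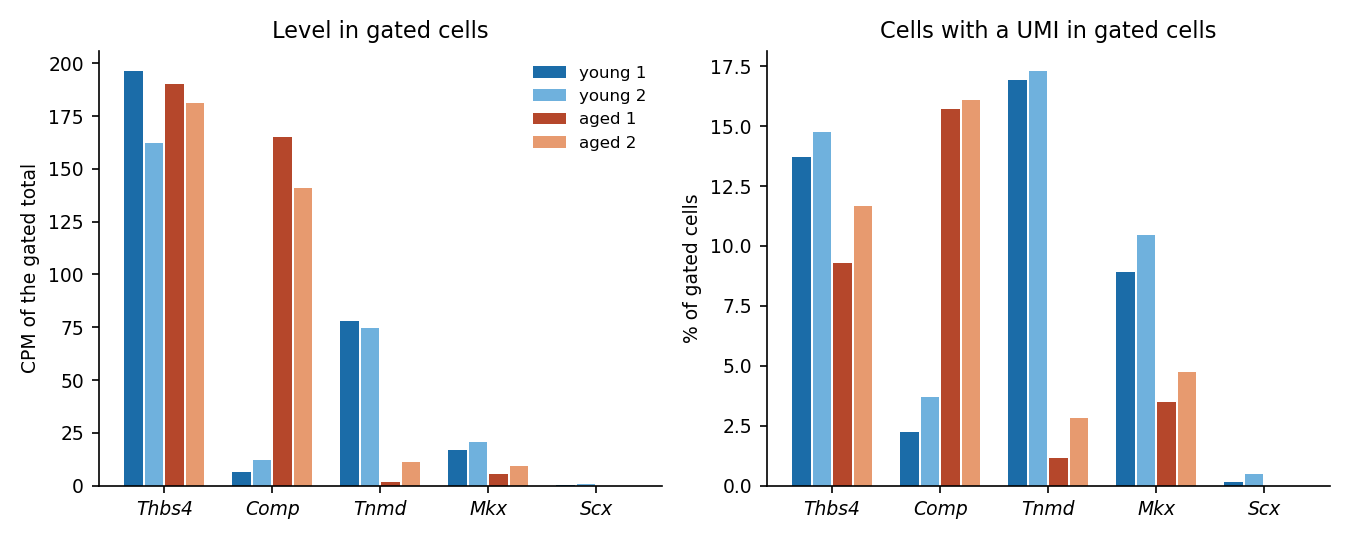
Tendon genes in gated cells per library, as CPM of the gated total (left) and as percent of gated cells with a UMI (right). Comp is high in the aged libraries only, at 165.3 and 140.9 CPM; Tnmd is high in the young ones only, at 77.96 and 74.56 CPM; Thbs4 overlaps between the ages, and Scx is near 0.

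Among the 20 genes that led the comparison with other collagen-positive cells, 5 rose and 7 fell with age. Over all genes tested, 3.45% rose and 3.61% fell. The 20 were chosen at a mean of at least 50 CPM, unlike all genes tested, so their count is a description. Of the risers, Angpt4 changed by 0.70 ± 0.11, Nrtn by 0.83 ± 0.13 and Wisp2 by 0.50 ± 0.13, beside Comp and Sfrp5, which entered the 20 through their aged levels. The call of Wisp2 was lost in 6 settings, among them DESeq2 and leaving out young replicate 1, young replicate 2 or aged replicate 2 (adjusted p up to 0.189). The falls were those of Pdgfrl (-1.85 ± 0.14), Npnt (-1.35 ± 0.14), Lsamp (-1.30 ± 0.16), Fam180a, 1500015O10Rik, Klf5 and Fxyd6. The other 8, among them Thbs4, Itgb4, Col8a1 and Meox1, did not pass the test. Itgb4 was at 57.79, 60.01, 88.17 and 82.28 CPM with an adjusted p of 0.059.

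Genes of collagen fibrils and their assembly fell more often than they rose in the aged gated cells. Of 21 measured partners of fibrillar collagens, 10 fell and 4 rose, with a median log2 change of -0.54 against -0.00683 over all genes tested. Sparc, a collagen-binding matricellular protein, stood at 14040, 12730, 2372 and 2369 CPM and fell by 2.54 ± 0.10 (adjusted p = 2.7e-07). Col5a2, whose product nucleates fibrils, fell by 1.64 ± 0.14, and the collagen VI chains Col6a1, Col6a2 and Col6a3 fell by 1.48, 1.52 and 1.13. The risers were Comp, the thrombospondins Thbs1 and Thbs2 and the tenascin Tnc, proteins that bind to collagen or to cells and do not form the fibril itself. Col1a1, Col1a2 and Col3a1 are part of the gate and were not tested. Their levels were 9668, 7393, 1635 and 1309 CPM for Col1a1 and 9026, 7038, 1546 and 1297 CPM for Col3a1. Of the partners of fibrillar collagens, 11 of 21 fell and 3 rose in the other collagen-positive cells.

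Of 24 collagen processing genes, 8 fell and 0 rose, with a median of -0.39; DESeq2 called 5 lower and 0 higher, and 0 were higher at an unadjusted p under 0.05. They included Loxl2 (-1.63 ± 0.15) and Lox, which crosslink collagen, the collagen chaperone Serpinh1 (-1.0 ± 0.10) and the procollagen peptidase Adamts2 (-1.15 ± 0.12). In the basement membrane list 7 of 16 fell and 1 rose, with a median of -0.39. Col15a1 stood at 332.5, 236.3, 70.72 and 52.36 CPM and fell by 2.27 ± 0.20, while Sparcl1, an adhesion-modulating relative of Sparc, rose by 0.73 ± 0.11, a call lost with at least 4 gate genes and after thinning (adjusted p up to 0.363). The small leucine-rich proteoglycans differed from these lists in their counts. Among 10 measured, Bgn rose by 0.64 ± 0.11 and 9, including Ogn, Aspn, Dcn and Lum, did not pass the test. Their median was 0.03. Among the other collagen-positive cells 13 of 24 processing genes fell and 0 rose, and 10 of 17 basement membrane genes fell and 2 rose. Of 11 small leucine-rich proteoglycans there, 2 rose and 2 fell.

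Elastic fibre genes were split, with 4 of 16 rising and 4 falling. The fibrillins Fbn1 (-0.86 ± 0.12) and Fbn2, the elastin gene Eln and the TGF-beta-binding Ltbp1 (-1.47 ± 0.14) fell, whereas the fibulins Efemp1 (0.95 ± 0.12), Fbln2 and Fbln5 and the binding protein Ltbp2 rose. Of 24 proteases and inhibitors 3 rose and 6 fell. Mmp3, a stromelysin that degrades matrix proteins, stood at 10.29, 17.26, 111.1 and 79.17 CPM and rose by 2.72 ± 0.24 (adjusted p = 0.00013). Timp2, an inhibitor of such enzymes, fell by 0.60 ± 0.09.

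**Figure D4:**
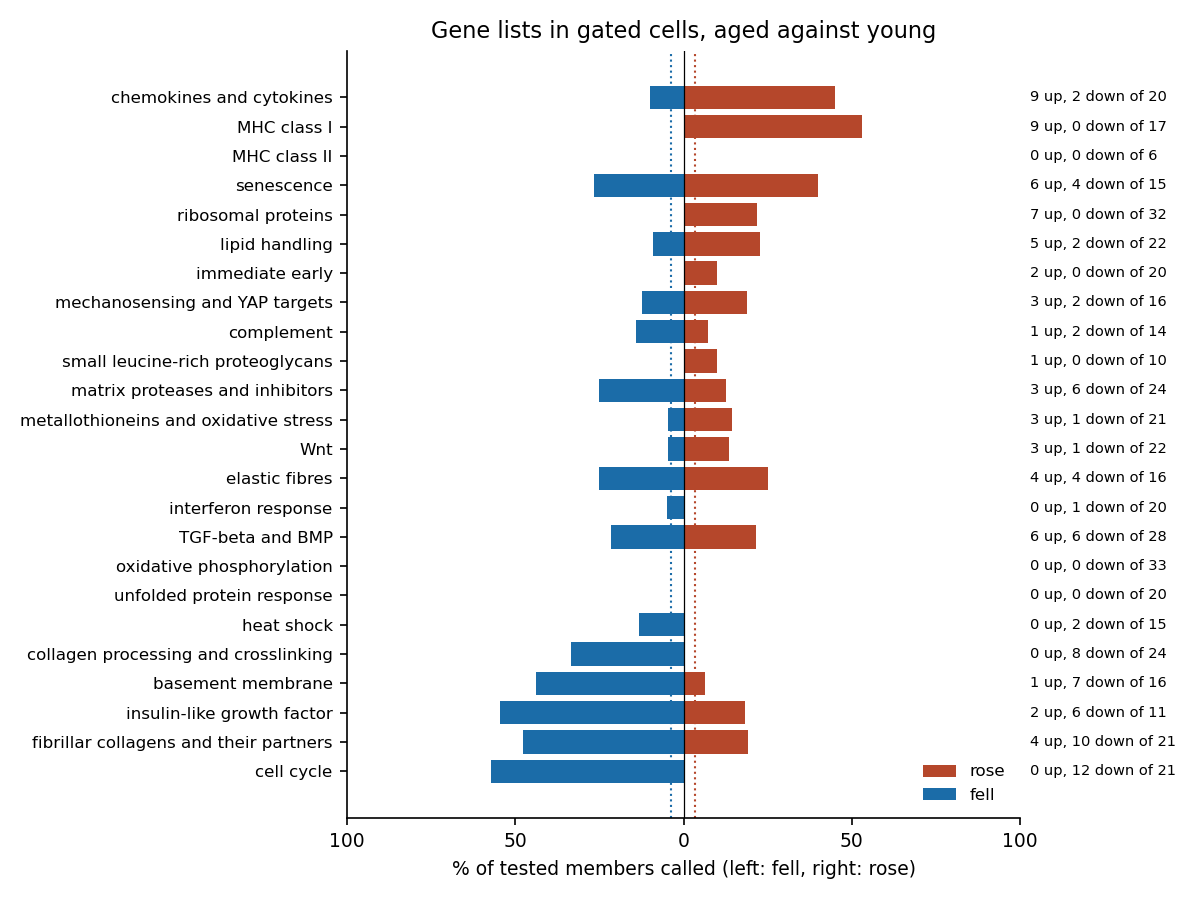
Gene lists in gated cells, aged against young: percent of the tested members of each list that rose (right) or fell (left) at an adjusted p under 0.05, with the counts beside the bars and lists ordered by median log2 change. Dotted lines mark the share of all genes tested that rose (3.45%) or fell (3.61%); cell cycle and fibrillar collagen partners lie at the bottom, and chemokines and MHC class I at the top.

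Growth factor genes moved in both directions. In the Wnt list, 3 of 22 rose and 1 fell. Sfrp5, Wnt11 (1.17 ± 0.23) and Dkk3 rose. DESeq2 called 1 of the list higher: the calls of Wnt11 and Dkk3 were lost, that of Dkk3 also with doublets removed and without young replicate 1, young replicate 2 or aged replicate 2 (adjusted p up to 0.236). Frzb, another secreted Wnt antagonist, stood at 34.78, 26.66, 2.76 and 6.23 CPM and fell by 2.71 ± 0.35 (adjusted p = 0.001, and 0.105 after thinning), or by 3.51 without aged replicate 2. In the TGF-beta and BMP list, 6 of 28 rose and 6 fell. The inhibitors of differentiation Id2, Id3 and Id4 rose, by 2.20 ± 0.22 for Id4 (adjusted p = 0.00022, and 0.081 after thinning), and Inhba and Tgfb2 fell. Of 11 insulin-like growth factor genes, 2 rose and 6 fell. Igfbp4 rose by 1.20 ± 0.11, from 935.4 and 909.2 to 2021 and 2347 CPM. Igfbp3 stood at 646.4, 478.4, 198.4 and 127.2 CPM and fell by 1.85 ± 0.20. Igfbp5 fell by 1.10 ± 0.13, and Igfbp2, at 5.82 and 6.18 CPM in the young libraries, had no count in the aged ones, at least 5.39-fold lower against a floor of 3 counts over the aged gated cells. This bound pools the libraries of an age and does not cover the spread between libraries. Igfbp proteins bind insulin-like growth factors and set how much reaches the receptor.

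Chemokine and cytokine genes were among the lists with more risers, with 9 of 20 up, 2 down and a median of 0.66. Beside Cxcl12 and Cxcl14, Ccl11, which attracts eosinophils, rose by 1.60 ± 0.15 and Tnfsf13b, a survival factor of B cells, by 1.51 ± 0.19. Tnfsf13b stood at 13.94, 12.49, 36.74 and 40.52 CPM. Il34, a ligand of the macrophage growth factor receptor, and Ccl2, which attracts monocytes, fell. In the complement list only C4b rose, from 74.57 and 69.8 to 737.5 and 617.7 CPM (3.19 ± 0.13, adjusted p = 3.7e-07), and the inhibitors Cd55 and Cd59a fell. The call of Cd59a was lost by DESeq2, with at least 4 gate genes and after thinning (adjusted p up to 0.428), and that of Cd55 with doublets removed (0.060). C4b had a UMI in 19.65%, 20.42%, 63.37% and 57.41% of gated cells and in 45.59%, 52.88%, 30.99% and 25.62% of immune barcodes. The young gated shares are thus no higher than in the immune barcodes, and the aged ones are above them. Outside the gate, in the other collagen-positive cells, 10 of 21 chemokine and cytokine genes rose and 3 fell. Of 16 complement genes there, 8 rose and 4 fell.

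MHC class I genes and the proteasome subunits that serve them were mostly higher in aged gated cells. Among the other collagen-positive cells 15 of 17 rose and 1 fell. Of 17 in gated cells, 9 rose and 0 fell, with a median of 0.63. By edgeR 0 lay below at an unadjusted p under 0.05, and DESeq2 called 10 higher and 0 lower. H2-D1 stood at 1099, 994.2, 1863 and 1756 CPM and rose by 0.75 ± 0.10. H2-Q6 and H2-Q7, near-identical copies between which reads may be split, rose by 2.22 and 2.39, the call of H2-Q6 being lost with at least 4 gate genes (adjusted p = 0.058). Of 6 class II genes edgeR called 0, with 1 higher at an unadjusted p under 0.05, and DESeq2 called 0. Without barcodes carrying transcripts of other cell types, a setting described further on, edgeR called H2-Ab1 (1.14), H2-Eb1 (1.17), H2-DMa (1.41) and H2-DMb1 (1.74) higher. Their highest library was aged replicate 2 (H2-Ab1 at 89.6, 122.5, 57.86 and 250 CPM). Of 20 interferon-response genes edgeR called 0 higher, with 2 higher at an unadjusted p under 0.05 and 0 by DESeq2, and Ifi27l2a fell by 0.86 ± 0.11. In the other collagen-positive cells 5 of 21 interferon-response genes rose and 1 fell. Lipid carriers rose, Apod by 2.10 ± 0.14, Pltp by 1.98 ± 0.12 and Apoe by 1.19 ± 0.11, and 5 of 22 lipid genes rose and 2 fell. Among 32 ribosomal protein genes 7 rose by edgeR and 9 by DESeq2, Rpl10 by 0.62 (a call lost with at least 4 gate genes), and 0 fell by either or lay below at an unadjusted p under 0.05. Of these 32 genes, 17 rose and 0 fell in the other collagen-positive cells.

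Cell cycle genes were lower in the aged gated cells, and in the other collagen-positive cells 15 of 21 fell and 1 rose. Of 21 measured in gated cells, 12 fell and 0 rose by edgeR, and 9 fell by DESeq2. In gated cells 0 were higher at an unadjusted p under 0.05. Mki67, a marker of proliferation, had a UMI in 1.16%, 2.44%, 0% and 0.32% of gated cells. Top2a, needed for chromosome separation, stood at 16.92 and 14.68 CPM in the young libraries and at 0 in the aged ones, at least 14.2-fold lower against a floor of 3 counts over the aged gated cells. That bound likewise does not cover the spread between libraries. Ccnd2, a cyclin of the first growth phase, fell by 1.75 ± 0.17, from 164.4 and 151.4 to 39.49 and 55.48 CPM. In the senescence list 6 of 15 rose and 4 fell, while 9 of 17 rose and 3 fell in the other collagen-positive cells. The cell cycle inhibitors Cdkn2a, Cdkn2b and Cdkn2c rose, the last by 1.48 ± 0.20 (adjusted p = 0.0015, and 0.0503 with at least 4 gate genes), together with Mmp3, Timp1 and Gdf15, while Igfbp3, Igfbp5, Ccl2 and Glb1 fell.

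Stress and energy genes showed fewer calls in gated cells than in the other collagen-positive cells, whose sums hold more cells. In the others 7 of 15 heat shock genes and 11 of 20 unfolded protein response genes fell, and 0 of either list rose. Of 33 oxidative phosphorylation genes there, 15 rose and 0 fell. In gated cells, of 15 heat shock genes Hspa1a and Hsph1 fell, with calls lost with at least 4 gate genes. Of 20 unfolded protein response genes edgeR called 0, with 3 lower at an unadjusted p under 0.05, and DESeq2 called 0. Without barcodes carrying transcripts of other cell types edgeR called Herpud1 (-0.42), Edem1 (-0.74), Calr (-0.32) and Hspa5 (-0.32) lower. Of 33 oxidative phosphorylation genes edgeR called 0, with 1 higher and 7 lower at an unadjusted p under 0.05, and DESeq2 called 0. Of 20 immediate early genes Junb (0.85 ± 0.12) and Ier2 rose, the latter not without young replicate 1 or with at least 4 gate genes (adjusted p up to 0.186). Metallothioneins Mt1 and Mt2 rose by 0.83 ± 0.10 and 1.03 ± 0.12. Of 16 mechanosensing genes, 3 rose and 2 fell, with Ctgf up by 1.69 ± 0.17 and Acta2, smooth muscle actin, up by 1.39 ± 0.17. Mural cell markers moved in both directions beside Acta2: Notch3 rose and Mylk fell, a call lost with at least 4 gate genes and after thinning (adjusted p up to 0.233).

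Transcripts of other cell types moved with age in these sums as well. Igkc, an antibody light chain, stood at 3.52, 5.28, 140.5 and 5949 CPM, by far the highest in aged replicate 2. Jchain rose from under 0.3 to 9.18 and 266.8 CPM, Ccl5 to 19.29 and 167.7 CPM, and Ighm to 19.29 and 349.1 CPM, from 12.59 and 15.97 CPM. The Ighm rise was 0.38 (adjusted p = 0.575) without aged replicate 2, and those of Igkc and Ccl5 were 4.94 and 2.62. All 6 measured B and plasma cell genes and all 4 measured T cell genes rose; their summed levels were 19.76, 23.05, 203.9 and 6643 CPM and 3.93, 8.50, 36.74 and 251.2 CPM. Macrophage genes (sums of 779.2, 997, 192.9 and 432.6 CPM) fell in 6 of 8 cases, and red cell globins fell, Hbb-bs by 8.74 ± 0.29; Hba-a1 and Hba-a2 are near-identical copies. Igkc had a UMI in 69.14% and 79.36% of aged immune barcodes and in 51.16% and 63.72% of aged gated cells.

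After barcodes with at least 5 UMIs of macrophage, T cell, B and plasma cell or tubule genes were left out, a setting chosen after seeing the data, 91.33%, 87.12%, 91.86% and 88.64% of gated cells stayed. The rises of Sfrp5 (4.07), Comp (3.81), Cxcl12 (3.67) and Cxcl14 (4.23) and the falls of Ncam1 (-4.65) and Tnmd (-3.30) were then nearly as large or larger. Other changes moved by more than 1.5-fold. The log2 change of Retnla was -1.10 in place of -2.72, and the rises of Apoe, Pltp and Snhg11 were 2.38, 2.87 and 5.97 in place of 1.19, 1.98 and 4.60. The rises of Igkc, Jchain, Ighm and Ccl5 stayed past the threshold at 6.80, 6.05, 2.12 and 3.53, and the falls of C1qa, C1qb, C1qc and Lyz2 no longer passed it. The log2 change of the macrophage gene C1qa was -1.61 before and 0.05 after. The part of such transcripts in the other results was not tested. Gm7609, a gene model, rose by 5.31 ± 0.28 in gated cells and by 5.30 in the other collagen-positive cells.

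Whether the age difference was particular to the gated cells was asked by a class-by-age term, which compares the age difference in gated cells with that in the other collagen-positive cells of the same libraries. Of 14966 genes tested, the term was positive for 194 (1.3%) and negative for 287 (1.92%), 481 or 3.21% in all. Of these 481 genes, 224 had also been called with age in gated cells. In the other collagen-positive cells alone, 2010 of 15526 genes rose (12.9%) and 2124 fell (13.7%), from sums with more cells. In 226 of the 481 the fitted age differences of the classes had opposite signs. The other collagen-positive cells are a mixture. At least 2 of Postn, Smpd3 and Cxcl13 had a UMI in 61.29%, 58.46%, 33.96% and 24.31% of them. For Apod, Inmt and Steap4 these shares were 30.16%, 26.51%, 60.81% and 53.71%. A term cannot be told apart from a shift in the mix of cells within either class.

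The largest positive terms were those of Sfrp5 (3.74 ± 0.53, adjusted p = 0.00015) and Comp (3.61 ± 0.62, adjusted p = 0.0012). In the other collagen-positive cells Comp was at 1.12, 0.573, 0.196 and 1.85 CPM and Sfrp5 at 2.13, 0.287, 1.47 and 1.50 CPM, with no call for age. Both genes stood higher in gated cells at either age. The term thus compares a change in gated cells with low levels in the others, at most 2.13 CPM for Sfrp5 and 1.85 CPM for Comp. In immune barcodes Sfrp5 stood at 0.066, 0.067, 0.428 and 0.360 CPM and Comp at 0.596, 0.067, 0.234 and 0.400 CPM. Both calls were lost by DESeq2 (adjusted p of 0.288 for Sfrp5 and 0.258 for Comp) and after thinning to 2000 UMIs (0.372 and 0.065). That of Sfrp5 was also lost without young replicate 1 (0.096). With 1 library left out the term of Sfrp5 ran from 2.00 (without young replicate 1) to 4.5 (without young replicate 2), and that of Comp from 2.66 (without young replicate 1) to 6.12 (without aged replicate 2). Cyp26b1 had a term of 2.54 ± 0.43. Ndnf, a secreted neurotrophic factor, stood at 6.50, 4.64, 44.08 and 44.26 CPM in gated cells and at 4.61, 4.09, 3.81 and 4.05 CPM in the others, a term of 3.04 ± 0.31.

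Lamb3 and H19 had positive terms with lower aged levels in the other cells. Lamb3, a laminin chain of epithelial anchorage, stood at 28.56, 28.33, 45 and 30.54 CPM in gated cells and at 3.29, 3.55, 0.489 and 0.44 CPM in the others. H19, an imprinted non-coding RNA, fell by 1.12 in gated cells and by 4.23 in the others. Terms of the chemokines were smaller than their changes, 1.47 for Cxcl12 and 1.83 for Cxcl14, and both also rose in the other cells, by 2.11 and 2.33. C4b had a term of 0.61. The term of Tnmd, 1.07, did not pass the test (adjusted p = 0.641); Tnmd also fell in the others, from 2.71 and 4.84 CPM to 0 and 0.264 CPM.

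Negative terms were led by Ncam1 (-2.91 ± 0.54), which fell in both classes but more in the gated cells, and whose term was -3.78 without aged replicate 1. Mcpt4 had a term of -2.82 that was 0.26 without barcodes carrying transcripts of other cells. For Itih2, Slc7a2 and Col8a1 the classes drew closer: these genes were high in gated cells and rose from low levels in the others. Itih2 and Slc7a2 also fell in gated cells, with log2 changes of -1.43 and -0.82 (adjusted p of 0.0083 and 0.0202 by edgeR). With at least 4 gate genes the terms of Itih2, Slc7a2 and Col8a1 were -1.889, -1.001 and -1.245, in place of -2.52, -2.16 and -2.13. They still passed the threshold. Col8a1 stood at 116.4, 102.5, 109.3 and 122.2 CPM in gated cells and at 1.63, 1.83, 7.23 and 7.92 CPM in the others, a term of -2.13 ± 0.20. Ifitm1, an interferon-induced membrane protein, rose by 2.90 in the others and differed by 0.55 (adjusted p = 0.139) in gated cells, a term of -2.34 ± 0.17. In the matrix lists, Sparc (-0.78), Col6a1 (-0.59), Col15a1 (-1.60) and Ltbp1 (-1.60) had negative terms, while those of Col5a1, Serpinh1, Adamts2 and Fbn1 did not pass the test.

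**Figure D5:**
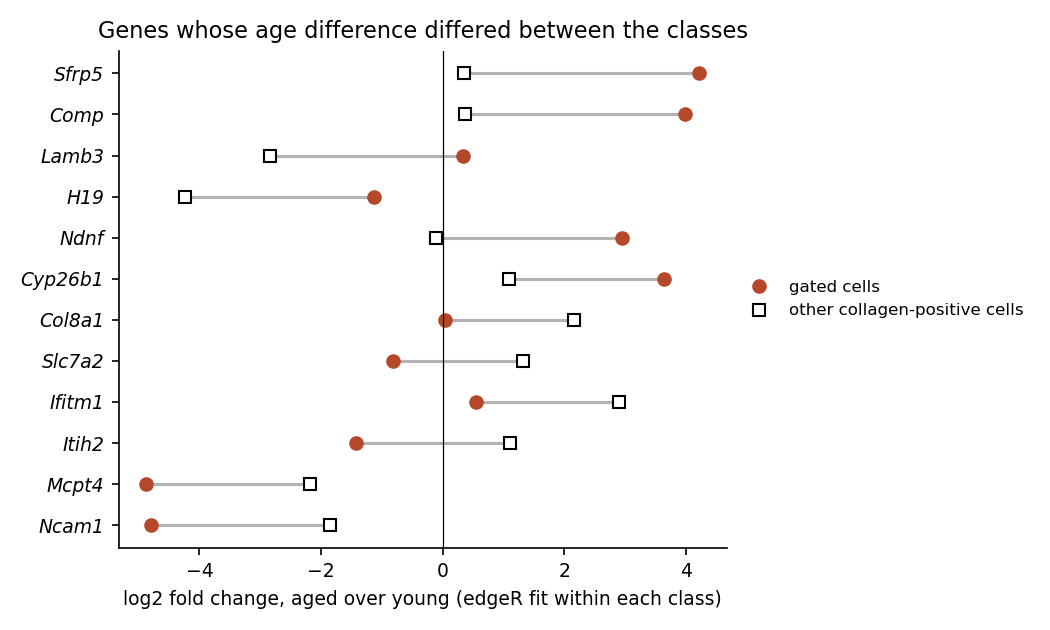
Log2 fold change with age within gated cells (filled circles) and within the other collagen-positive cells (open squares) for the 12 genes with the largest class-by-age terms, joined by a line per gene. Sfrp5 and Comp lie near 4 in gated cells and near 0.4 in the others, and Col8a1 near 0 in gated cells and at 2.16 in the others.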

How the data were processed

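UMI counts per gene and barcode were used as deposited: raw counts that the authors made with Cell Ranger on GRCm38, version 6.0.2 per the submitters' processing notes and 6.0.1 per the file headers. The gene annotation the authors counted on is not given in the sources used here. The 4 libraries held 39436 barcodes and 68052444, 70925446, 51180311 and 65118489 UMIs. The quality limits on a barcode were 500 UMIs and 300 genes as minimum and a mitochondrial share of 20% as maximum. Doublets stayed in; removing 2902 barcodes by Scrublet (scanpy 1.11.5) was an alternative.

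UMI counts were summed per library and class. Age and class by age (library as a block) were tested with edgeR 4.0.16 (quasi-likelihood test after TMM and filterByExpr, in R 4.3.3), with Benjamini-Hochberg adjustment over all genes tested and a threshold of 0.05. The 10 genes of the gate were not tested. DESeq2 1.42.0, other scalings, other gates, thinning and leaving out each library were alternatives. The tests were tried on simulated data first. Printed CPM have no TMM scaling.

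The cells, the gene lists and the tests were chosen with earlier results of these data known. Named genes were the 12 largest rises and 12 largest falls with a mean of at least 20 CPM and libraries that did not overlap, up to 4 genes per list by adjusted p, the 6 largest terms each way and the 20 highest and 10 lowest ratios between the classes. Other genes of the lists were chosen for mention after their values were seen. Of 52636 genes, 52403 had an identifier in GENCODE M21.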

Additional observations from a re-analysis of the deposited data

Results flagged for a closer look

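The class-by-age test called 481 genes, and the 12 given here have the largest terms, 6 each way, among those of at least 20 CPM in gated cells. The log2 terms, gated minus other, were 3.74 for Sfrp5, 3.61 for Comp, 3.15 for Lamb3, 3.13 for H19, 3.04 for Ndnf and 2.54 for Cyp26b1. On the negative side they were -2.91 for Ncam1, -2.82 for Mcpt4, -2.52 for Itih2, -2.34 for Ifitm1, -2.16 for Slc7a2 and -2.13 for Col8a1. After thinning to 2000 UMIs per cell, with fewer cells and counts, Ndnf and Ifitm1 alone of these 12 passed the threshold. The Mcpt4 term also missed it by DESeq2 (adjusted p = 0.079), with at least 4 gate genes and without aged replicate 2 (-1.41, adjusted p = 0.578), and was 0.26 without barcodes carrying transcripts of other cell types.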

How the results depend on the processing

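The counts depended on the settings. With 434 rises and 454 falls as reported, rises numbered 921 with the replicate number as a block, 719 with at least 2 gate genes, 225 after thinning to 2000 UMIs and 287 among genes above their level in immune barcodes. Falls numbered 258 by DESeq2, 981 without a filter on low counts, 1072 with the block, 830 with at least 2 gate genes, 199 after thinning and 292 above the immune level. Positive terms, 194 as reported, numbered 101 by DESeq2, 294 without a filter, 368 with the block and 107 after thinning. Negative terms, 287 as reported, numbered 122 by DESeq2, 621 with the block, 140 without doublets and 129 after thinning. Leaving out 1 library gave 334 to 510 rises, 467 to 666 falls, 153 to 204 positive and 208 to 374 negative terms, and share ratios of 0.487 to 0.535. The share ratio of 0.511 became 0.415 with at least 4 gate genes, 0.624 with at least 2 and 0.195 over all barcodes.

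Replicate numbers were not used as pairs in the main fit, as nothing in the labels ties a number to a mouse or a day. Deviations of same-numbered libraries correlated at 0.288 across 12594 genes. With only 2 pairs, this value cannot show whether the numbers pair the libraries. Reversed signs were C1qa at 0.046 without barcodes of other cell transcripts, Mcpt4 (term) at 0.26 in the same setting, and, with 1 library left out, Fabp4 (-1.48 to 1.08, highest without young replicate 2), H2-Ab1 (-0.92 to 1.20) and H2-Eb1 (-1.30 to 1.15), both lowest without aged replicate 2; the cause was not tested. Of 123 named results past the threshold, 72 passed it under every one of the 14 alternatives that gave a value. The aged gated sums hold 172 and 317 cells, which limits what can be seen of genes at a few CPM.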
